A study of Mus musculus with 72 samples.

Results

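The mRNAs of mitochondrial carriers (Slc25a genes) and of the mitochondrial import machinery (Tomm and Timm genes) were followed in mouse embryonic stem cells. Members were the protein-coding genes whose symbol starts with Slc25a, Tomm or Timm and a number, and that had at least 400 T positions counted in exons in every library used. Of 72 genes with such a symbol, 58 passed, and these were 34 of 47 carriers and 24 of 25 import genes, among 11575 genes of any kind that passed the same minimum. The minimum used coverage and not the labeling values described here. It had to be met in every fraction, so that a gene scarce in a single fraction could fail it. Slc25a24, for example, was left out with a lowest count of 73 and a median of 952. The members are therefore not free of a choice by localization. Just inside it were Timm8a2, Slc25a53 and Slc25a27, with 402, 425 and 453 T positions in their poorest library. Just outside were Slc25a45 and Slc25a43, with 256 and 252, and the lowest counts of the other 12 genes that were left out ran from 0 to 122.

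Carriers of the SLC25 family sit in the inner mitochondrial membrane and move nucleotides, phosphate, keto acids, amino acids and cofactors across it. Like nearly all mitochondrial proteins, they are made on cytosolic ribosomes. The TOM complex of the outer membrane receives them, small TIM chaperones of the intermembrane space escort them, and the TIM22 complex inserts them, while the TIM23 complex takes up proteins with a cleavable presequence. Their mRNAs may be read by free ribosomes or by ribosomes docked at the mitochondrial surface, whereas carriers of the plasma membrane are made at the endoplasmic reticulum (ER).

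The cells were E14TG2a, a single established line of mouse embryonic stem cells, and every culture received 4-thiouridine (4sU), a uridine analog that enters new RNA and is read as a T-to-C (T2C) mutation. Cultures were labeled for 15, 20 or 30 min (replicates 1 and 2), for 20, 40, 60 or 120 min (replicates 3 and 4), or for 60 or 120 min (replicates 5 and 6), and nuclear, cytosolic, membrane and whole-cell RNA was sequenced. The labels give 500 µM 4sU up to 40 min and 100 µM at 60 and 120 min. The methods of the study list more cultures at the higher concentration for the later times than the labels do, without naming replicates, so that concentration and replicate pair cannot be told apart there. At 60 min, the estimated rate of T-to-C conversion in new RNA was 0.0583 to 0.0829 in libraries of replicates 3 and 4. It was 0.0238 to 0.0399 in those of replicates 5 and 6, under the same label of 100 µM. Which concentration each pair received was not tested. The study set aside cultures that received 500 µM for longer than 60 min. To follow it, the 8 libraries of replicates 3 and 4 at 120 min were left out, although their label is 100 µM. The 64 libraries used came from 16 cultures, and each fraction had 16. Unlabeled libraries were not used here and no background was subtracted from labeling values.

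The libraries held 15382522 to 52975732 reads on genes. All 8 embryonic stem cell markers were above 1 TPM (reads per exon length, scaled to the same sum in every library) in whole cells, with a summed level of 6601 to 13440 TPM per library. Of the fibroblast and primitive endoderm markers, 2 of 5 and 1 of 4 were above 1 TPM, with summed levels of 3.91 to 13.6 and 0.799 to 4.01 TPM. On the log2 scale, mRNAs of 7 ER proteins were 4.06 to 5.68 higher in the membrane than in the cytosol, and also 1.75 to 2.98 higher in the nucleus than in the cytosol. Of 13 RNAs encoded by mitochondrial DNA, 7 were above 1 TPM in whole cells. These were 6.49 to 9.67 higher in the membrane and 2.01 to 5.74 higher in the nucleus than in the cytosol. The others were at a mean of 0.423 TPM or less, and not all of them had a ratio. Of 4 nuclear RNAs, all were 1.35 to 5.08 higher in the nucleus than in the cytosol, and their membrane over cytosol ratio ran from -0.09 to 2.50. The part of RNA from one fraction in another in the results was not tested.

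The first comparison asked whether carrier and import mRNAs accompany the membrane fraction, as the mRNAs of secreted and plasma membrane proteins do. Most carrier mRNAs were divided between membrane and cytosol much like the median gene, although the highest member was a carrier, Slc25a44. A minority of import mRNAs (26.1%) was called higher in the membrane, by up to about 2.09-fold. That share was near the share of all genes. The study used another measure, mean TPM in the membrane over the cytosol, with limits of 1.5 and 3. With TPM as computed here all 58 members were under 1.5, the range that the study classed as cytosol-localized. They include Tomm6 and Timm10b, whose read counts are uncertain, as described below, so that their TPM ratios carry little weight. The ratios below are on the scale of edgeR's fit. Reads were compared with edgeR's quasi-likelihood test over 16 cultures, with labeling condition as a covariate, and a call needed a Benjamini-Hochberg adjusted p under 0.05 over all genes and an absolute log2 ratio over 0.5. Of 57 members tested, 7 were higher in the membrane, 3 were lower and 47 were not called. Of all 16939 genes 26.4% were higher and 8.33% lower, and of the genes of 400 T positions 20.6% were higher and 8.94% lower. The fit put the median gene of 400 T positions at -0.15, against -0.09 for the carriers (1 higher, 2 lower, 31 not called) and 0.12 for the import genes (6 higher, 1 lower, 16 not called). When the median of genes was set to 0, the split became 9 higher and 2 lower, and with library sizes as the only scaling it became 5 higher and 21 lower. Relative to the median gene, carriers lay 0.06 and import genes 0.26 higher, and 18 other settings gave -0.05 to 0.09 and 0.05 to 0.40.

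Other solute carriers, mostly multi-spanning transporters of the plasma membrane and organelles, stood far apart. Of 129 such Slc genes tested, 122 were higher in the membrane, 1 was lower, and their median log2 ratio was 3.00. The mitochondrial ribosomal proteins, 77 soluble proteins of the matrix that are also imported, had a median of -0.02, with 8 higher and 2 lower. No member of the carriers or import genes reached the median of the other solute carriers, and the highest stood at 1.15.

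**Figure D1:**
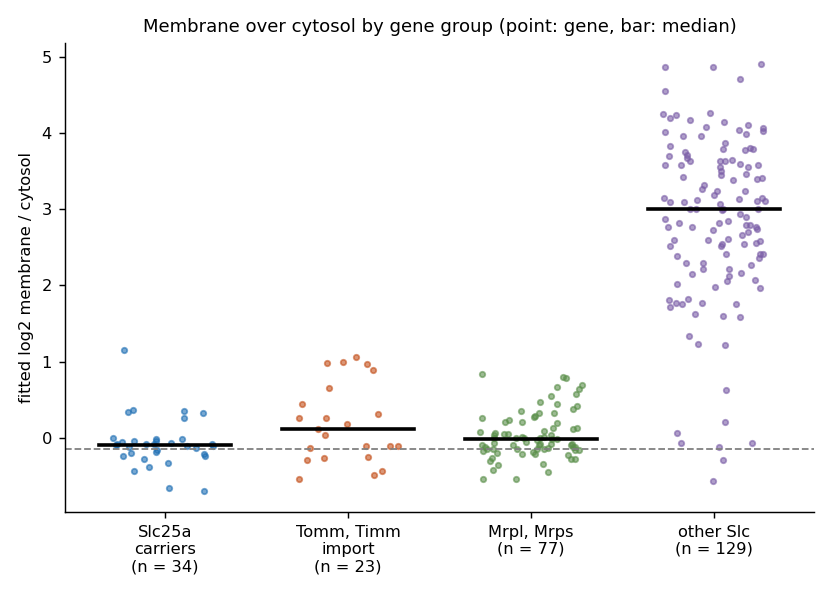
Fitted log2 ratio of read counts in the membrane over the cytosol for Slc25a carriers, Tomm and Timm import genes, mitochondrial ribosomal proteins (Mrpl, Mrps) and all other Slc genes. Each point is a gene, black bars are group medians and the dashed line is the median gene of 400 T positions (-0.15). The Slc25a carriers have a median of -0.09 and the other Slc genes one of 3.00.

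The carrier with the highest membrane ratio was Slc25a44 (chr3:88410498-88425139, minus strand, GRCm38), which moves branched-chain amino acids into mitochondria. Its log2 ratio was 0.79 in the lowest culture, 1.09 in the median culture and 1.68 in the highest, so that all 16 cultures lay above 0. The fit gave 1.15 ± 0.07 (SE), or 2.22-fold, with an adjusted p of 8.8e-17. The 4 next carriers did not reach the size needed for a call. They were Slc25a35 at 0.37 ± 0.11, the peroxisomal carrier Slc25a17 at 0.35 ± 0.05, Slc25a14, a relative of the uncoupling proteins, at 0.34 ± 0.09 and Slc25a37, the iron carrier mitoferrin 1, at 0.33 ± 0.10. Slc25a17 was above 0 in 16 of 16 cultures and Slc25a37 in 11.

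At the other end, Slc25a23 (chr17:57043711-57059863, minus strand), a calcium-regulated ATP-Mg/phosphate carrier, had log2 ratios from -1.39 through a median of -0.62 to 0.06. Its fitted ratio fell by 0.69 ± 0.11 on the log2 scale (adjusted p = 1.72e-06). Slc25a30 (chr14:75760117-75787037, minus strand), also akin to the uncoupling proteins, ran from -2.47 through -0.57 to -0.03, with a fit of -0.65 ± 0.13 (adjusted p = 3.69e-05). Both had few reads, at least 49 and 42 in the poorest library, and each lost its call in 2 of 18 other settings. The ornithine carrier Slc25a15 was lower in all 16 cultures but too little for a call, at -0.43 ± 0.05. The glutamate carrier Slc25a22 and Slc25a16 followed at -0.39 ± 0.11 and -0.33 ± 0.09.

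The most abundant carriers, Slc25a5, Slc25a39 and Slc25a4, were not called in this comparison. Slc25a5 and Slc25a4, the adenine nucleotide translocases that exchange ADP for ATP, had whole-cell levels of 882 ± 298 and 249.8 ± 137 TPM (SD, n = 16) and log2 ratios of -0.12 ± 0.06 and -0.14 ± 0.06. The phosphate carrier Slc25a3 and the citrate carrier Slc25a1 lay at -0.08 ± 0.05 and -0.10 ± 0.05. The glutathione carrier Slc25a39, at 263 ± 119 TPM, lay at -0.23 ± 0.07. Reads of Slc25a5 may be shared with a processed pseudogene, so that its level is uncertain.

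**Figure D2:**
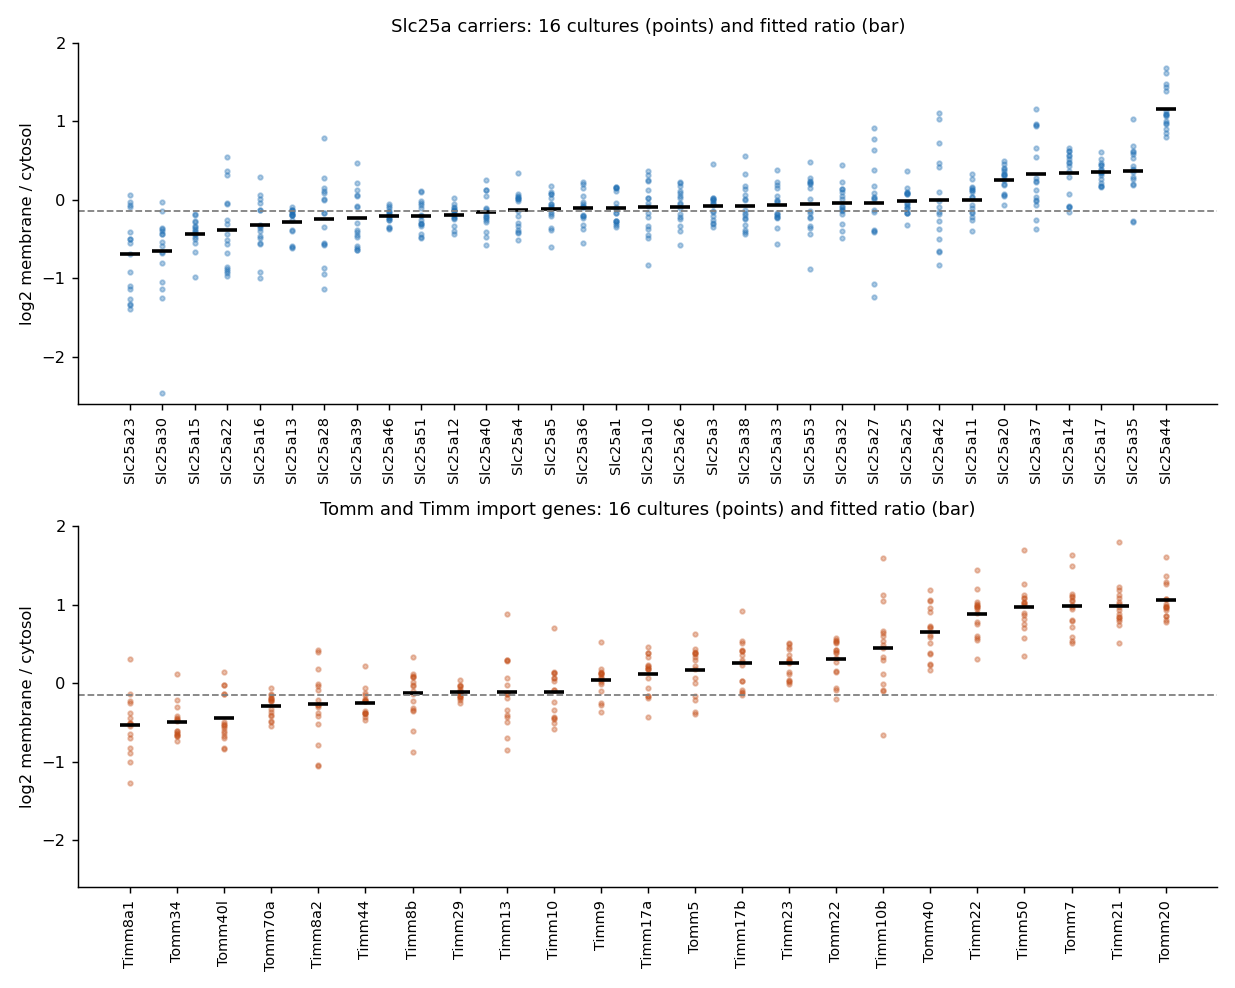
log2 ratio of normalized reads in the membrane over the cytosol of each culture (points, 16 per gene) and the fitted ratio (black bar) for 33 carriers and 23 import genes, ordered by the fitted ratio. The dashed line is the median gene (-0.15). Slc25a17, Slc25a44, Tomm40, Timm22, Timm50, Tomm7, Timm21 and Tomm20 have all 16 points above 0.

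Of 8 TOM genes tested, 3 were higher in the membrane, and so were 1 of 2 TIM22 and 2 of 6 TIM23 genes. The 6 import genes that were higher are 26.1% of the 23 tested, near the 26.4% of all genes and beside 20.6% of genes of 400 T positions. Tomm20 (chr8:126930667-126945844, minus strand), the TOM receptor for presequences, ran from 0.78 through a median of 0.98 to 1.61, with a fit of 1.06 ± 0.06 (adjusted p = 4.8e-17). Tomm7 (chr5:23838944-23844161, minus strand), a small TOM subunit, ran from 0.51 through 0.99 to 1.64, with a fit of 0.98 ± 0.08 (adjusted p = 6.1e-13). The channel subunit Tomm40 (chr7:19701313-19715438, minus strand) ran from 0.17 through 0.66 to 1.19, with a fit of 0.66 ± 0.07 (adjusted p = 6.17e-10). The groups did not overlap with 0 for any of these, although Tomm40 lost its call in 4 of 18 other settings.

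Timm21 (chr18:84946191-84951524, minus strand) and Timm50 (chr7:28305516-28312072, minus strand), both TIM23 subunits that face the intermembrane space, were higher by 0.99 ± 0.08 and 0.97 ± 0.07 (adjusted p = 8.52e-14 and 7.51e-14). Their cultures ran from 0.51 through 0.95 to 1.80 and from 0.35 through 1.01 to 1.70. Timm22 (chr11:76406952-76416292, plus strand), the channel that inserts carriers into the inner membrane, ran from 0.31 through 0.96 to 1.44, with a fit of 0.89 ± 0.07 (adjusted p = 5.2e-14). Its partner Timm29 was not called, at -0.11 ± 0.04.

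The small TIM chaperones, soluble proteins of the intermembrane space, had no member called higher. Timm8a1 (chrX:134537256-134541865, minus strand) ran from -1.27 through -0.51 to 0.30 and was called lower, at -0.54 ± 0.08 (adjusted p = 4.25e-07), although 5 of 18 other settings lost the call. Timm8a2, Timm8b, Timm9, Timm10 and Timm13 lay between -0.26 and 0.04. The lowest TOM genes were not called: the cytosolic cochaperone Tomm34 at -0.49 ± 0.06, Tomm40l at -0.44 ± 0.07 and Tomm70a, the receptor for carrier precursors, at -0.29 ± 0.05. Thus the paralogs Tomm40 and Tomm40l lay on opposite sides of 0, as did the receptors Tomm22 (0.31 ± 0.06) and Tomm70a. Timm17a and Timm17b lay at 0.12 ± 0.07 and 0.26 ± 0.07, and the aspartate/glutamate carriers Slc25a12 and Slc25a13 at -0.19 ± 0.05 and -0.28 ± 0.05.

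The read level could not be used for every import gene. Members had a median of 30.1 T positions per counted read, but Timm23 had 97.6, Timm8a1 130.5, Timm10b 179 and Tomm6 21870. Tomm6 and Timm10b each overlap another protein-coding gene on their own strand, and such reads are not assigned to either gene. Tomm6 therefore failed the read filter in this comparison. With T positions in place of reads, an alternative added after seeing the data, Tomm6 lay at -0.26 ± 0.08, Timm8a1 and Timm23 lay at -0.63 and 0.23, Timm10b was called higher at 0.67, and 8 members were higher and 6 lower.

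Coding sequences are shown because a run of hydrophobic residues, such as a membrane-spanning helix, is the usual feature of mRNAs that reach membranes with their ribosomes. Codons with T as the second base encode hydrophobic residues, and for each gene the 20 codons in a row with most such T were taken from the annotated transcript with the longest coding sequence (GENCODE, GRCm38). Capitals mark T as the second base of a codon. The stretches were picked by this count alone, and whether any of them spans a membrane was not tested. The members that were higher in the membrane, other than Timm21, had these stretches, starting at codons 41, 104, 15, 199, 71 and 275:
Slc25a44: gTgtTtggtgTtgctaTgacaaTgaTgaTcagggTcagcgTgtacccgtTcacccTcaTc
Tomm20: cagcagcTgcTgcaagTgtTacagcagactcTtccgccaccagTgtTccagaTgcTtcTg
Tomm7: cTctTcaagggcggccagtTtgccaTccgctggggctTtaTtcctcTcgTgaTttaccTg
Tomm40: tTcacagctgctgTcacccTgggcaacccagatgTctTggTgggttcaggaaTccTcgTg
Timm22: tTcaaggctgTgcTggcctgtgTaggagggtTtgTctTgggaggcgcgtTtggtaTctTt
Timm50: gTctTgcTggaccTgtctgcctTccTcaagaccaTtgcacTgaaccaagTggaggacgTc
The members that were lower had these, starting at codons 221, 104 and 62:
Slc25a23: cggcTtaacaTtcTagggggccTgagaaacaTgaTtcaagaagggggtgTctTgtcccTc
Slc25a30: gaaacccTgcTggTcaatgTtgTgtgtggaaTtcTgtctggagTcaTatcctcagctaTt
Timm8a1: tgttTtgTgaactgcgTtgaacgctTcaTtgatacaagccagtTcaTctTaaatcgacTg
The abundant translocases, which were not called, had these, starting at codons 208 and 270:
Slc25a4: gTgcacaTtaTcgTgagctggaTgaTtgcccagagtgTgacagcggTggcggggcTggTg
Slc25a5: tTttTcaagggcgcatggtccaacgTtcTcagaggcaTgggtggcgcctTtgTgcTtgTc
Slc25a44 and Timm21 had 12 such codons of 20, Tomm20, Tomm7, Timm22 and Timm50 had 10 and Tomm40 had 9, against 9, 10 and 9 in Slc25a23, Slc25a30 and Timm8a1 and 10 and 9 in Slc25a4 and Slc25a5. Slc25a1, Slc25a14, Slc25a17, Slc25a46 and Timm44, which were not called, also had 12, so that the members that were higher and those that were not overlapped in this count.

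Over whole coding sequences, T was the second base in a median of 31.0% of codons in the carriers (23.9% to 37.5%), 26.9% in the import genes (18.6% to 36.4%), 36.5% in the other solute carriers and 26.3% in all 10574 genes with a usable coding sequence. The densest 20 codons held a median of 10, 9, 14 and 10 such codons in the same order. Across all genes the densest stretch and the membrane ratio had a Spearman's rho of 0.41 (n = 10464 genes), against 0.23 in the 34 carriers and 0.36 in 23 import genes. These correlations are across genes, which are not independent replicates and share base composition and length, and are given as a description.

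The second comparison asked how the members were divided between nucleus and cytosol. More members were lower than higher in the nucleus. Of 58 members, 8 were called higher in the nucleus, 31 were lower and 19 were not called. Of all 18100 genes 36.7% were higher and 30.6% lower, but of the genes of 400 T positions 27.1% were higher and 37.6% lower. Medians were -0.45 for carriers (6 higher, 16 lower) and -0.72 for import genes (15 lower, and 2 higher that rest on uncertain reads, Tomm6 and Timm10b), against -0.21 for the median gene of 400 T positions. The mitochondrial ribosomal proteins had a median of -1.03, with 67 of 77 lower and 0 higher in edgeR's test. Setting the median gene to 0 gave 9 higher and 26 lower members, and library sizes alone gave 10 and 19.

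Of the carriers, the uncoupling protein relative Slc25a27 (chr17:43641891-43667214, minus strand) was the highest in the nucleus. Its cultures ran from 0.61 through 1.41 to 3.24, and the fit gave 1.66 ± 0.17 (adjusted p = 3.98e-10), or 3.15-fold. The coenzyme A carrier Slc25a42 and the iron carrier Slc25a28 (mitoferrin 2) followed at 0.79 ± 0.21 and 0.64 ± 0.09 (adjusted p = 9.01e-04 and 3.97e-07). Slc25a28 was above 0 in all 16 cultures and Slc25a42 in 13. Slc25a37, the paralog of Slc25a28, was also called, at 0.56 ± 0.16, but lay at -0.07 in replicates 1 and 2 alone. All 3 had whole-cell levels far below those of the abundant translocases, and intronic T positions made up 60.1% ± 7.6, 41.6% ± 6.1 and 62.3% ± 6.0 (SD, n = 16) of the nuclear T positions of Slc25a27, Slc25a42 and Slc25a28.

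The lowest carriers in the nucleus were Slc25a15, Slc25a4 and Slc25a5, at -1.53 ± 0.06, -1.50 ± 0.10 and -1.33 ± 0.11 (adjusted p = 4.69e-19, 5.47e-14 and 2.56e-12). Their highest cultures were at -1.27, -0.80 and -0.68, so that none overlapped 0. Of the nuclear T positions of Slc25a4 and Slc25a5, 6.5% ± 2.7 and 3.5% ± 2.0 were intronic. The lowest import genes were the small TIM chaperones Timm8a1 at -1.73 ± 0.11, Timm8a2 at -1.58 ± 0.13 and Timm10 at -1.47 ± 0.10 (adjusted p = 1.29e-14, 2.95e-12 and 1.04e-13), with the paralog Timm8b at -1.45 ± 0.14. Timm21 and Timm50, both higher in the membrane, were the highest import genes with a usable read count, at 0.34 ± 0.07 and 0.13 ± 0.06, and neither was called. Tomm6 and Timm10b were called higher on reads (1.89 and 0.55), but with T positions they lay at -1.50 and -0.30, so no direction is given for them.

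**Figure D3:**
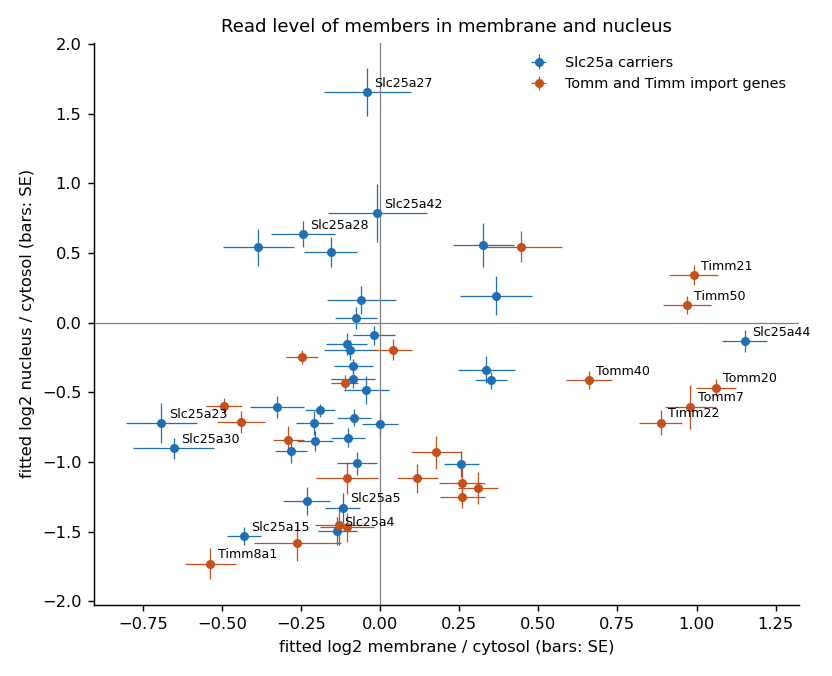
Fitted log2 ratio of nucleus over cytosol (vertical) against membrane over cytosol (horizontal) for 34 carriers and 23 import genes, with standard errors, Tomm6 left out. Both axes share the cytosolic libraries. Genes higher in the membrane spread from Timm22 at -0.72 to Timm21 at 0.34 on the nuclear axis.

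Intronic T positions were a median of 30.8% of the T positions of a carrier in the nucleus, 8.87% in the cytosol and 9.31% in the membrane. For import genes these were 14.7%, 2.696% and 2.10%, and for all genes of 400 T positions 26.4%, 7.76% and 6.50%. Slc25a53 was the extreme, with 89.4% ± 2.1 in the nucleus and 83.5% ± 2.7 in the cytosol, and Timm29 the opposite, with 0.21% ± 0.18 in the nucleus. For genes with introns that overlap other transcripts, these positions cannot be assigned to a gene with certainty.

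Labeling was measured next as the share of new to total mRNA, the T2C mutations per T position divided by the conversion rate of the library. Import mRNAs had a lower share than the median gene in nearly every library, whereas carriers lay on both sides of it. The median share of the import genes was below that of all genes of 400 T positions in 16 of 16 nuclear libraries and 16 of 16 membrane libraries, and above it in 2 cytosolic libraries and 1 whole-cell library. Carriers exceeded all genes in 8 nuclear, 3 cytosolic, 8 membrane and 12 whole-cell libraries, and import genes in 15 nuclear, 9 cytosolic, 13 membrane and 15 whole-cell libraries of 16. At 120 min in the cytosol, the carriers were at 0.376 and 0.386, the import genes at 0.220 and 0.228 and all genes at 0.367 and 0.372. This gap depended on the summary, because with T2C mutations and T positions summed over the genes of a group, which weights abundant mRNAs, the shares were 0.232 and 0.245 for carriers, 0.226 and 0.227 for import genes and 0.251 and 0.260 for all genes. Summed in that way, carriers exceeded import genes in 11 nuclear, 4 cytosolic, 14 membrane and 10 whole-cell libraries of 16, carriers exceeded all genes in 2 nuclear libraries and 1 whole-cell library, and import genes exceeded all genes in 0. As medians, the mitochondrial ribosomal proteins, at 0.213 and 0.234, lay next to the import genes.

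The 60 min libraries differed by replicate pair. In the cytosol, the carriers had median shares of 0.0717 and 0.0720 in replicates 3 and 4 and of 0.154 and 0.215 in replicates 5 and 6. Those of the import genes were 0.0612 to 0.0743 and 0.114 to 0.136, and those of all genes 0.0924 to 0.0929 and 0.182 to 0.206. Values at 60 min are thus given by pair where a result turns on them. Among whole-cell libraries, replicate 6 had a higher median share of the carriers at 60 min (0.412) than at 120 min (0.210), unlike replicate 5 (0.188 and 0.441), so that no course is read from whole cells at these times.

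**Figure D4:**
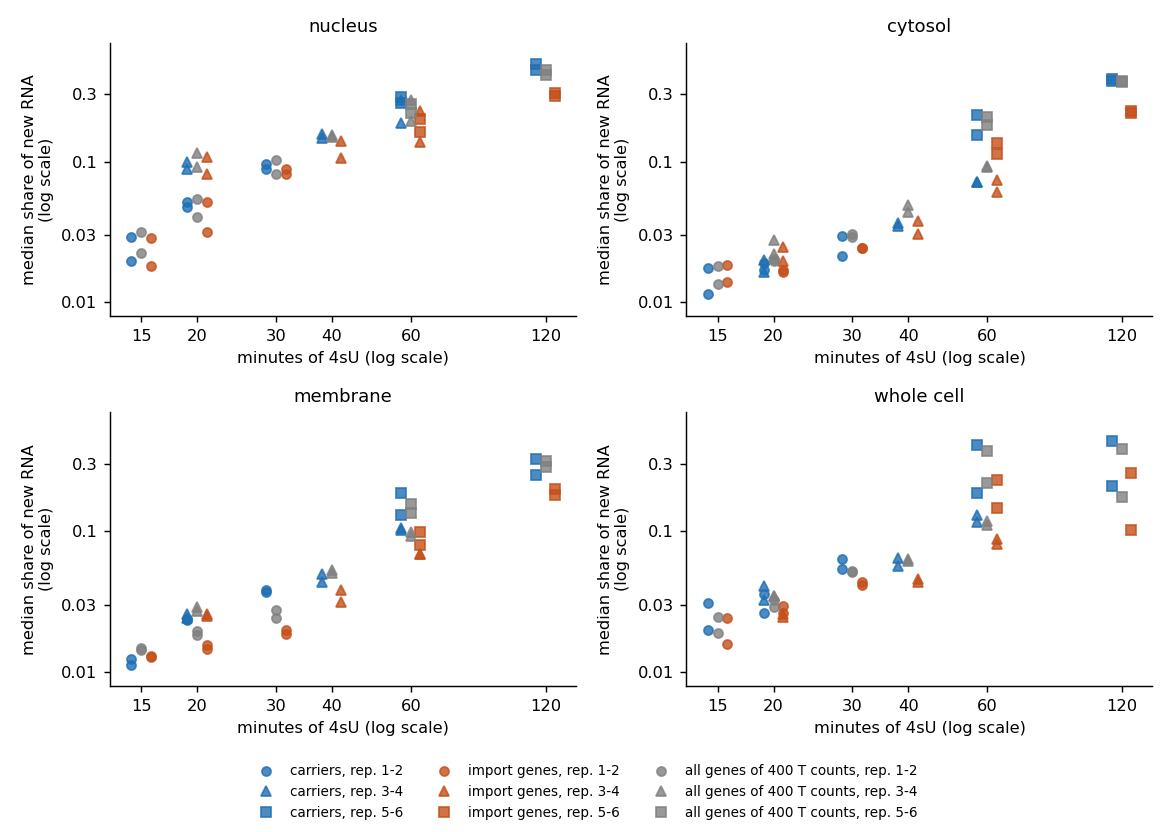
Median share of new RNA of carriers, import genes and all genes of 400 T positions in each library, by minutes of 4sU, both on log scales, in 4 fractions. Symbols mark replicate pairs and are offset sideways. At 120 min in the cytosol the medians of the carriers lie at 0.376 and 0.386 and those of the import genes at 0.220 and 0.228, against 0.232 and 0.245 and 0.226 and 0.227 when counts are summed over genes.

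The shares of single members spread more than 10-fold in the cytosol at 60 min. The highest carriers were Slc25a25, another calcium-regulated ATP-Mg/phosphate carrier, at 0.578 ± 0.116, the folate and FAD carrier Slc25a32 at 0.506 ± 0.160 and the NAD carrier Slc25a51 at 0.355 ± 0.093 (SD, n = 4). Slc25a25 and Slc25a32 stood at percentiles 95.6 and 93.5 of all genes and were at 1.04 and 1.00 in the cytosol at 120 min, a share above 1 being possible because the conversion rate is an estimate. The lowest carriers were the glutathione carrier Slc25a39 at 0.0404 ± 0.0194, the dicarboxylate carrier Slc25a10 at 0.0443 ± 0.0097 and the S-adenosylmethionine carrier Slc25a26 at 0.0448 ± 0.0160. Neighbours in this order did not differ beyond their spread. The 3 highest and 3 lowest did not overlap, but they were picked by these same shares, so that their gap is no separate evidence.

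The abundant translocases also had low shares, with Slc25a4 at 0.0563 ± 0.0222 and Slc25a5 at 0.0635 ± 0.0178. Among import genes, Timm29 (0.367 ± 0.081), Timm8a2 (0.299 ± 0.104) and Timm10 (0.246 ± 0.079) were the highest. Tomm7 (0.0367 ± 0.0135), Tomm40l (0.0371 ± 0.0191) and Timm17b (0.0474 ± 0.0240) were the lowest. Paralogs could differ: Timm17a was at percentile 49.3 of all genes and Timm17b at percentile 10.4. Slc25a28 and Slc25a37, the mitoferrins, lay close together at percentiles 60.3 and 63.7, and so did the translocases at 14.8 and 18.4.

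Nuclear RNA was compared with cytosolic RNA to ask how far new RNA had left the nucleus. A quasi-likelihood test of T2C counts with the log of T positions times conversion rate as offset, over all 64 libraries, called 44 of 58 members higher in the nucleus at 20 min and 0 lower, while 70.1% of 11575 genes were higher and 0.596% lower. At an unadjusted p under 0.05, 8486 genes differed, and limma on log2 shares called 46 members higher and 0 lower. The median log2 ratio was 1.51 for carriers and 1.55 for import genes, against 1.47 for all genes. The replicate pairs differed, with medians of 1.27 for carriers, 0.96 for import genes and 1.07 for all genes in replicates 1 and 2 (30 members higher), and of 2.03, 2.15 and 1.85 in replicates 3 and 4 (46 higher). The medians over both pairs thus lay near that of all genes. Median cytosolic shares at 20 min were low, at 0.0182 for carriers, 0.0195 for import genes and 0.0225 for all genes. No background was subtracted, and its part in these ratios and in their closeness was not tested. With the median of genes set to 0, 6 members were higher and 1 lower.

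At 60 min, 39 members were higher in the nucleus and 0 lower in edgeR's test, while 50.2% of genes were higher and 3.42% lower. At an unadjusted p under 0.05, 6711 genes differed, and limma on log2 shares called 33 members higher and 0 lower. The median was 0.98 for carriers and 0.85 for import genes, against 0.76 for all genes. Replicates 3 and 4 alone gave 43 members and a median gene of 1.23, replicates 5 and 6 alone gave 6 and 0.25, and the split was 11 higher and 4 lower with the median gene set to 0. The highest ratios were those of Slc25a26 at 2.51, Slc25a1 at 2.41 and Tomm40l at 2.40, which all had a low share in the cytosol.

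Some members had close shares in nucleus and cytosol at 60 min. Slc25a25 and Slc25a32 had log2 ratios of 0.02 and 0.06 (adjusted p = 0.949 and 0.86), after 1.53 and 1.86 at 20 min (adjusted p = 1e-06 and 6.72e-09). Slc25a51 lay at 1.02 at 20 min and at -0.07 at 60 min. These times come from different replicate pairs, and only replicates 3 and 4 have both. In those, the nuclear share of Slc25a5 was 0.123 and 0.0864 at 20 min and 0.0968 and 0.0466 at 60 min, and its cytosolic share was 0.0211 and 0.0210 at 20 min and 0.0523 and 0.0445 at 60 min. The nuclear values of the times overlapped, and the cytosolic ones did not.

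The last comparison asked whether membrane-bound RNA was older or younger than cytosolic RNA. At 60 min, 2 members had a higher share in the membrane and 1 a lower one, while 0.994% of genes were higher and 9.23% lower. The medians were 0.02 for carriers and -0.20 for import genes, against -0.06 for all genes. They were 0.29, -0.04 and 0.11 in replicates 3 and 4 alone and -0.25, -0.37 and -0.24 in replicates 5 and 6 alone, so that the sign for carriers and for all genes turned with the pair. The other solute carriers had 91 of 130 genes lower and a median of -1.31, so that the carriers of mitochondria and those of other membranes differed here as well. Within replicates 5 and 6 alone, 0 members were higher and 0 lower by edgeR's test, at 1489 genes with an unadjusted p under 0.05, and within replicates 3 and 4 alone 2 were higher.

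Timm9 (chr12:71123173-71136684, minus strand), which forms a chaperone ring with Timm10, had the largest membrane excess. Its cytosolic shares at 60 min were 0.124 and 0.112 in replicates 3 and 4 and 0.312 and 0.286 in replicates 5 and 6. Its membrane shares were 0.334, 0.298, 0.461 and 0.422 in the same order. The membrane was higher in each of the 4 cultures, although the ranges of the fractions overlapped across pairs, and the fit gave 0.99 ± 0.24 (adjusted p = 0.00104). The nuclear shares were higher still, from 0.531 to 0.771. Within pairs the log2 ratio was 1.42 and 0.56, the latter with an adjusted p of 0.628 in edgeR's test. Timm9 also had 23.9% of its membrane T positions in introns, against 14.3% in the cytosol and 40.9% in the nucleus. The part of nuclear RNA in this excess was not tested.

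Slc25a36 (chr9:97074961-97111157, minus strand), a pyrimidine nucleotide carrier, followed. Its cytosolic shares were 0.0995, 0.101, 0.282 and 0.249 in replicates 3 to 6 and its membrane shares 0.219, 0.194, 0.369 and 0.368. Again the membrane was higher in each culture, and the fit gave 0.76 ± 0.20 (adjusted p = 0.00285), with 1.04 and 0.47 within pairs, the latter at an adjusted p of 0.595 in edgeR's test. Its call was lost without replicate 3 (adjusted p = 0.0537 in edgeR's test), where the uncoupling protein relative Slc25a27 was called in its place. Intronic T positions were 25.0% of those in the membrane, 15.5% in the cytosol and 30.8% in the nucleus, and the part of nuclear RNA was not tested here either. At 120 min the shares were 0.571 ± 0.016 in the cytosol and 0.608 ± 0.017 in the membrane (SD, n = 2). The paralog Slc25a33 was at 0.11 on the same scale and was not called.

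Slc25a22 was the 1 member with a lower share in the membrane. Its cytosolic shares were 0.0633, 0.123, 0.171 and 0.0946 in replicates 3 to 6, and its membrane shares 0.0427, 0.0504, 0.0575 and 0.0486. All 4 membrane values lay below all 4 cytosolic values, and the fit gave -1.18 ± 0.40 (adjusted p = 0.0406). These shares rest on 8 to 37 T2C counts per membrane library, and 10 of 14 other settings lost the call (limma with 2 added to the counts called Slc25a14 lower in its place), among them the fit with cultures as a replicate block (-1.15, adjusted p = 0.0514 in edgeR's test).

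**Figure D5:**
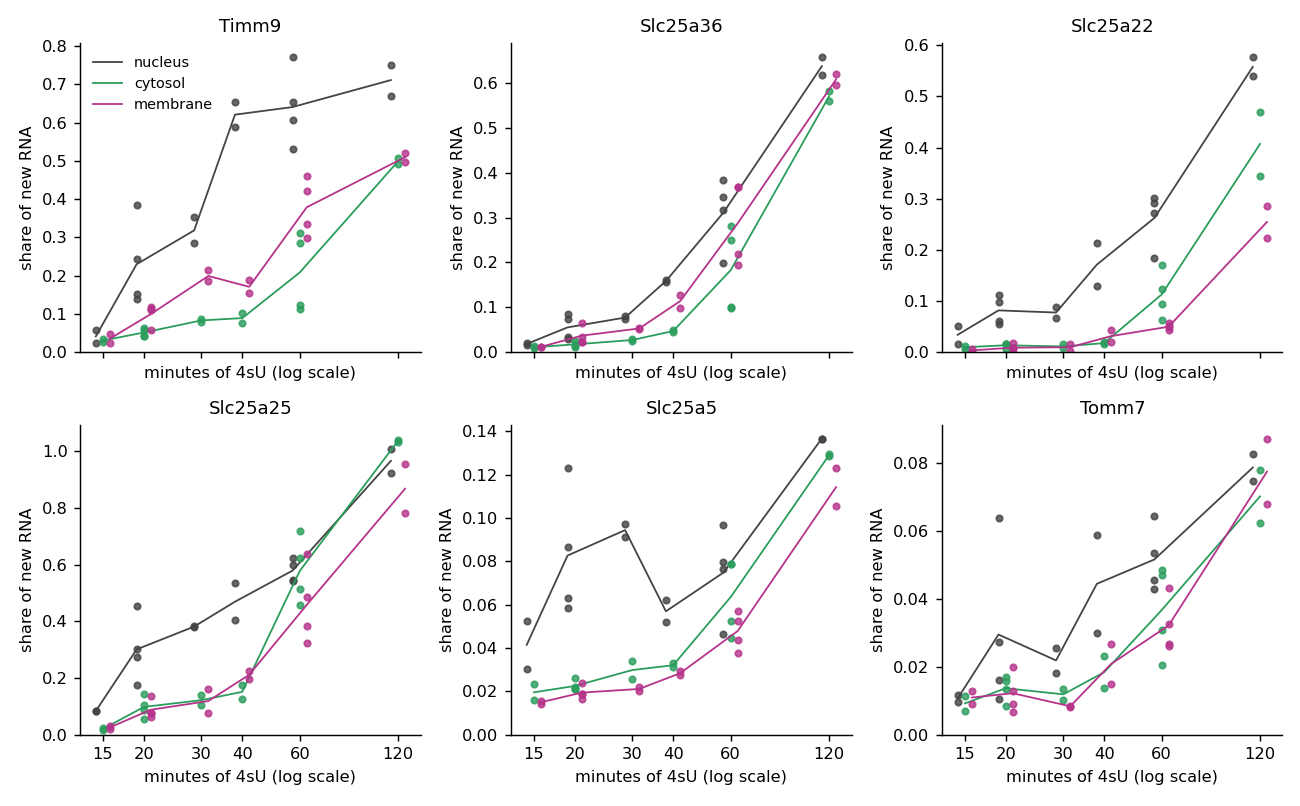
Share of new RNA in nucleus, cytosol and membrane by minutes of 4sU (log scale) for 6 members, with each library as a point and the mean of each time as a line, which joins replicate pairs and concentrations. Timm9 lies higher in the membrane than in the cytosol at 60 min (0.298 to 0.461 against 0.112 to 0.312), and Slc25a22 lies lower.

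Whether the membrane over cytosol level changed with labeling time was tested as the difference between 60 and 20 min in replicates 3 and 4. None of 57 members was called in either direction, as was 0% of the 16939 genes in edgeR's test, with 1009 genes at an unadjusted p under 0.05. DESeq2 also called 0 (940 genes before adjustment). Members ranged from -0.73 to 0.54 on the log2 scale.

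Further genes of the same or neighbouring routes were read from lists. Of 15 other carriers and channels, 12 were measured, and 2 were higher in the membrane and 2 lower. Sfxn2, a sideroflexin, and Mpc2, a pyruvate carrier subunit, were higher at 0.80 and 0.55 (adjusted p = 9.7e-09 and 1.47e-07 in edgeR's test). The uncoupling protein Ucp2 and the outer membrane channel Vdac1 were lower by -0.72 and -0.56 (adjusted p = 1.38e-11 and 1.29e-12 in edgeR's test). A list of 25 other import genes also held genes outside the import machinery proper, such as Afg3l2 and Timmdc1. Of these 25, 6 were higher in the membrane and 0 lower in the same test. The 6 are 24.0% of the genes in that list, and the other carriers had 16.7% in each direction. Of the genes of 400 T positions, 20.6% were higher and 8.94% lower, so that the lists lay near that share of higher genes. The largest ratios were those of Timmdc1 at 1.25, an assembly factor of complex I related to the Tim17 family, and of the protease subunit Afg3l2 at 1.03. Immp2l, Romo1, Pam16 and Agk followed at 0.97, 0.87, 0.73 and 0.68. In the nucleus over the cytosol, 9 of 12 other carriers were lower and 2 higher, with a median of -1.01. In the list of other import genes, 13 of 25 were lower and 2 higher, with a median of -0.55. Among all genes 30.6% were lower and 36.7% higher, and among genes of 400 T positions 37.6% were lower and 27.1% higher.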

How the data were processed

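Per the labels, poly(A) RNA of 4 fractions was sequenced. The authors aligned reads with STAR 2.7.6 to GRCm38 (GENCODE annotation) and deposited raw read counts per gene (HTSeq 0.11.1), per-gene counts of T positions and T-to-C mutations (exons and introns apart, variants left out), and, as a fraction, the conversion rate of each library from a binomial mixture. The deposited ratio, T2C over T divided by that rate, was recomputed and differed by at most 1.2e-13. RSEM 1.3.3 is also named in the submitters' processing notes. Its output was not used here.

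For levels, a quasi-likelihood test (edgeR 4.0.16 under R 4.3.3) used TMM factors, the filterByExpr filter and 8 labeling conditions as covariate. For shares, T2C counts were tested with an offset. The 20-codon stretches came from GENCODE transcripts. DESeq2 1.42.0 and limma 3.58.1 (0.5 or 2 added to T2C counts) were alternatives, as were other scalings, filters, subsets and T positions in place of reads. On simulated counts at a log2 change of 1, 179 of 200 changed genes were found for membrane against cytosol (5 false calls, 16939 genes). For shares at 60 min, 169 of 200 were found (5 false, 11575 genes). The share simulation gave each gene a single share over all fractions and times, apart from the change, and a spread set in advance. Its counts therefore need not hold for these data, where replicate pairs differed. Of 51826 genes, 51633 matched the annotation. Reads assigned to no gene were 4.41% to 35.2%. Replicate libraries differed more than sampling noise (chi-square per degree of freedom of at least 5.08). Fractions of a culture were paired through the protocol, and their deviations from group means correlated at 0.0515 to 0.23 (membrane and cytosol) and -0.0319 to 0.24 (nucleus and cytosol). Where labels do not say that replicates were separate cultures, p-values measure the spread between samples. Members and lists were chosen with earlier results of these data known. Named were the 5 highest and 5 lowest of each class by membrane ratio, the 3 highest and 3 lowest by nuclear ratio and by cytosolic share at 60 min, chosen paralogs, and members called in a share comparison of membrane and cytosol. 1 carrier counts among the members but is not reported here by name.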

Additional observations from a re-analysis of the deposited data

Results flagged for a closer look

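Of 44 groups of 4 cultures or libraries examined, 2 held a value far from the other 3, and chance gives about 1 in 20. At 60 min, Timm22 had a log2 membrane over cytosol ratio of 0.55 in 1 culture, apart from the other 3. At 20 min, Tomm20 had a ratio of 1.61 in 1 culture, apart from the other 3. Both genes were above 0 in all 16 cultures, and the causes were not tested.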

How the results depend on the processing

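The rule gave 61 members at a T minimum of 100, 53 and 50 at higher minimums and 56 over all 72 libraries. In the level of membrane against cytosol, library size only gave 21 lower members and medians of -0.48 (carriers) and -0.27 (import genes), and no filter on low counts gave 7 lower and -0.25 for carriers. Setting the median gene to 0 moved the carriers to 0.055. Lower members numbered 5 in replicates 1 and 2 alone, 0 in replicates 5 and 6 alone (8 were higher there) and 6 with T positions. Leaving out replicates in turn gave 6 to 8 higher, 2 to 7 lower, -0.27 to -0.063 for carriers and -0.11 to 0.20 for import genes. Without replicate 1 or 5 the median of all genes moved to -0.28 or -0.31 and 6 and 7 members were lower. In the level of nucleus against cytosol, library size only gave 19 lower members and -0.11 for carriers, the median gene at 0 gave -0.24, protein-coding genes of 400 T counts only gave -0.30, and replicates 5 and 6 alone gave 3 higher members and -0.27. Replicates 1 and 2 alone gave 5 higher members, and replicates 3 and 4 alone put import genes at -1.19. Direction turned for Tomm7 (0.26 in replicates 5 and 6 alone), Slc25a37 (-0.072 in replicates 1 and 2 alone), Slc25a23 (0.23 in replicates 3 and 4 alone) and, with T positions, for Tomm6 (-1.50) and Timm10b (-0.30).

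For shares of nucleus against cytosol at 20 min, the median gene at 0 gave 6 higher and 1 lower members, limma with 2 added gave 1 lower, and Slc25a11 turned without replicate 2 (range of -0.11 to 1.86). Below the median gene lay Tomm40 (-0.063), Slc25a39 (-0.17), Slc25a17 (-0.031), Tomm7 (-0.65), Slc25a38 (-0.28), Tomm6 (-0.59), Slc25a37 (-0.086), Slc25a51 (-0.46), Slc25a44 (-0.42) and Tomm20 (-0.41). With the median gene at 0 none of these was called (adjusted p of 0.121 or more in edgeR's test). All were called higher in the main fit, so that the values describe a nuclear excess under that of the median gene. At 60 min, replicates 5 and 6 alone gave 6 higher, the median gene at 0 gave 11 higher and 4 lower, and leaving out replicates in turn gave 29 to 41. Timm23 (-0.11) and Tomm5 (-0.034) also lay below the median gene at 60 min, without a call. For membrane against cytosol at 60 min, the 2 higher members became 0 in replicates 5 and 6 alone. The 1 lower member became 0 in either pair alone, with the median gene at 0, with limma on log2 shares, without replicate 3, 4, 5 or 6 (range 0 to 1) and with the replicate block. The block also added Slc25a35 to the members higher in the nucleus at 60 min (40 against 39) and changed no other call. Pooled T2C over T put the carriers in the nucleus at 60 min at 0.192 in place of 0.253. The causes were not tested. Genes of few T2C counts limit what shares before 60 min can show.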
